A study of Mus musculus with 9 samples.

Results

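The epidermal growth factor (EGF) family in these data consisted of 10 genes, chosen by gene symbol from the 46517 genes of the series: the ligand genes Tgfa, Areg, Ereg, Hbegf, Btc and Egf, the receptor genes Egfr, Erbb2 and Erbb3, and the receptor inhibitor gene Errfi1. They were measured by RNA sequencing in 9 cultures of duodenal organoids, which are small 3D epithelial structures grown from intestinal crypts of wild-type C57BL/6J mice in Matrigel. All cultures received serum-containing conditioned medium with Wnt3a, R-spondin 3 and noggin, and the methods name no added EGF. The medium also held an inhibitor of the kinase ROCK, an inhibitor of the TGF-beta receptor kinase and nicotinamide. The cultures, in 3 groups of 3, were transduced with adenovirus at 50 particles per cell and harvested about 72 hours later: Ad-GFP, the control virus with CMV-driven eGFP, Ad-hHIF2 and Ad-hHIF1, which carry human hypoxia-inducible factors with proline-to-alanine substitutions that keep them from being degraded. The HIFs were raised by overexpression, all cultures were kept at the same reduced oxygen and carried virus, and the transgenes are human while the counted genes are mouse.

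The EGF family ligands are made as membrane-anchored precursors, are cut free by ADAM proteases and bind the EGF receptor (Egfr, also called ErbB1) on the same or neighbouring cells. Ligand-bound receptors pair with each other or with ErbB2, which has no known ligand of its own, or with ErbB3, whose own kinase is weak, and pass the signal on through the RAS-ERK and PI3K routes. Errfi1 encodes MIG6, which binds the kinase domain of the EGF receptor and inhibits it, and which is itself induced when the pathway is active. In the intestine these ligands support crypt proliferation and repair after injury.

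Library totals ran from 21722618 to 51119041 expected counts, the read counts per gene that RSEM estimates. Mouse Epas1, which encodes HIF2, was at 672.1 ± 78.1 CPM (read counts scaled to the library total with TMM factors; SD, n = 3) in Ad-hHIF2 and at 1.77 ± 0.382 in Ad-GFP. Hif1a was at 309.0 ± 9.96 CPM in Ad-hHIF1 and at 219.7 ± 28.0 in Ad-GFP, a 1.41-fold difference with no overlap that did not pass (edgeR adjusted p = 0.486), so the mouse gene checks the HIF1 label only weakly. How far reads of the human transgenes were assigned to the mouse genes was not tested. Of the 8 epithelial markers, Krt8, Krt18, Krt19 and Cdh1 were abundant, Cdx2 was between 6.55 and 8.99 CPM, Vil1 was between 3.27 and 4.94 CPM and Cdx1 was at 0 in all 9 libraries. Epcam was low and fell with HIF2, from 2.94 ± 0.744 to 1.68 ± 0.245 CPM (edgeR adjusted p = 0.0472), and Cdh1 rose, from 218.5 ± 12.4 to 315.7 ± 31.7 CPM (edgeR adjusted p = 0.00313). All 5 Paneth cell and all 5 enteroendocrine markers stayed under 1 CPM, and the summed stem cell markers stayed between 0.360 and 2.01 CPM. Of the latter, Lgr5 (log2 change 1.84, edgeR adjusted p = 0.0714) and Axin2 (1.02, edgeR adjusted p = 0.253) lay above Ad-GFP with HIF2 but did not pass. Olfm4, Ascl2 and Smoc2 stayed under 1 CPM. The summed tuft cell markers stayed between 45.9 and 57.9 CPM and the summed endothelial markers between 1.06 and 3.03 CPM. The 5 goblet cell markers summed to 5.98 to 9.05 CPM in Ad-GFP, 2.61 to 2.71 in Ad-hHIF2 and 4.31 to 6.04 in Ad-hHIF1, with Fcgbp, Spdef and Tff3 under 1 CPM in every library. The goblet mucin gene Muc2 was called lower with HIF2, at 5.86 ± 1.47 CPM in Ad-GFP and 1.71 ± 0.267 in Ad-hHIF2 (edgeR adjusted p = 0.000882). The summed fibroblast markers stayed between 9.53 and 19.1 CPM and the summed leukocyte markers between 10.2 and 17.5 CPM. Of the latter, Ptprc, the gene of the leukocyte antigen CD45, was scarce and was called lower with HIF2, at 0.492 to 1.15 CPM in Ad-GFP and 0 to 0.0686 in Ad-hHIF2 (edgeR adjusted p = 0.00472). The other leukocyte markers tested did not pass with HIF2, with log2 changes over Ad-GFP of 0.38 for Cd68 and -0.87 for Lyz2. The part of these markers in the results was not tested. In Ad-hHIF1 replicate 3, the transcripts Gm10800 and Gm26870 took 16.0% of all counts, against 0.433% to 4.28% in the other libraries. In bulk RNA, fewer cells of a type and less RNA per cell cannot be told apart.

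To ask which EGF family genes responded to HIF2, edgeR's quasi-likelihood test was run on the Ad-hHIF2 and Ad-GFP cultures across 14987 genes. A gene passed at a Benjamini-Hochberg adjusted p below 0.05, and was called when it also changed at least 2-fold. Of the 10 family genes, 5 passed and rose (Tgfa, Errfi1, Ereg, Egfr and Erbb2), 0 fell and 5 did not pass. Across all genes tested, 15.9% passed and rose and 13.6% passed and fell. Tgfa was the family gene called, where 6.73% of all genes were called and 2.9% were called higher. The median log2 change was 0.20 over the 10 genes and -0.012 over all genes tested.

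**Figure D1:**
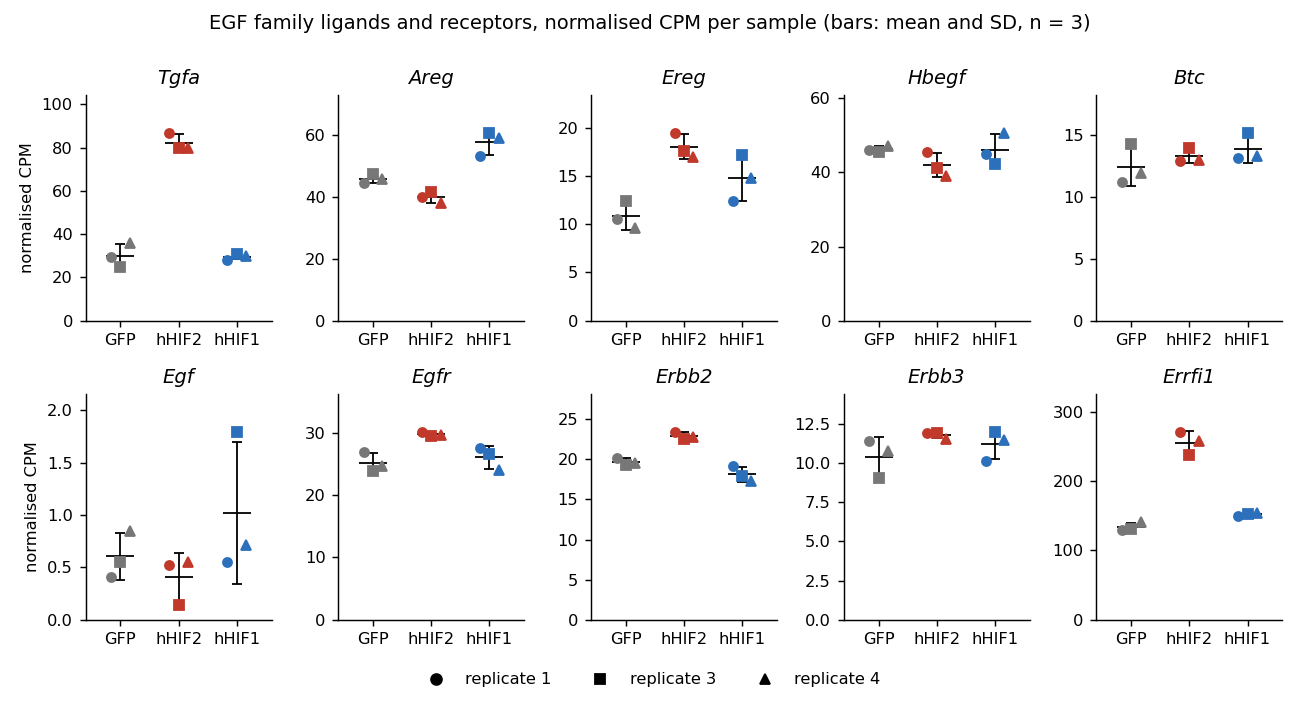
CPM of each of the 10 genes (vertical axis, starting at 0) in the 3 cultures of each group (points, shaped by replicate number), with the mean and SD as bars. The Ad-hHIF2 points of Tgfa (79.6 to 86.9 CPM) and Errfi1 (237.0 to 270.9 CPM) lay above all points of the other groups, and those of Areg (38.2 to 41.7 CPM) lay below.

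Tgfa, which encodes transforming growth factor alpha, a ligand of the EGF receptor, was the ligand gene that moved most. Its level was 29.3, 24.7 and 35.8 CPM in Ad-GFP replicates 1, 3 and 4, and 86.9, 79.6 and 80.0 CPM in Ad-hHIF2. In Ad-hHIF1 it was 28.2, 30.6 and 29.8 CPM. The lowest Ad-hHIF2 culture stood well above the highest culture of either other group, and the Ad-hHIF1 cultures lay within the range of Ad-GFP. Tgfa rose 2.76-fold with HIF2 (log2 change 1.46 ± 0.128 SE, 95% confidence interval 1.17 to 1.75, edgeR adjusted p = 8.66e-05). The HIF1 change was -0.017 on the log2 scale, with an interval from -0.32 to 0.29 (edgeR adjusted p = 0.975).

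Errfi1, the inhibitor gene, showed the next largest rise and was the most abundant of the 10. Its level was 129.7, 131.5 and 140.7 CPM in Ad-GFP, and 270.9, 237.0 and 257.0 CPM in Ad-hHIF2. The Ad-hHIF1 cultures were at 149.9, 153.0 and 153.6 CPM, above every Ad-GFP culture and below every Ad-hHIF2 culture. Errfi1 rose 1.91-fold with HIF2 (log2 change 0.93 ± 0.0812 SE, interval 0.75 to 1.12, edgeR adjusted p = 8.66e-05), just short of the 2-fold that a call required. The HIF1 change of 0.18 (log2) did not pass (edgeR adjusted p = 0.573).

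The promoters of Tgfa and Errfi1 are shown because these genes changed most, and that of Areg because it differed between the HIFs in the other direction. RefSeq entries were matched for 7 of the 10 genes, and Ereg, Hbegf and Erbb3 had no entry. Each line gives the 250 bases before an annotated start on GRCm38.p6, 5′ to 3′ on the gene's strand, with capitals marking 2 motifs: the core of the hypoxia response element, to which HIFs bind (ACGTG or GCGTG, searched on both strands), and the cAMP response element (TGACGTCA, the same on both strands). The windows are chr6:86194972-86195221 (+) for Tgfa, chr4:150854820-150855069 (+) for the second of the Errfi1 starts and chr5:91139349-91139598 (+) for Areg, and none overlapped an annotated exon of its gene. Of the Errfi1 starts, the second is printed, and only its window held motifs. That window lies inside the annotated gene, which runs from 150853919 to 150868892.
Tgfa: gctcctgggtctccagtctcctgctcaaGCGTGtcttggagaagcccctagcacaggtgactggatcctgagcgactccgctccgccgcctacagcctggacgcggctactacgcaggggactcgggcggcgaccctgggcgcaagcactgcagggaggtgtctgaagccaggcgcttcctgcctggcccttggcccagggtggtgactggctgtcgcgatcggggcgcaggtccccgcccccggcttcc
Errfi1: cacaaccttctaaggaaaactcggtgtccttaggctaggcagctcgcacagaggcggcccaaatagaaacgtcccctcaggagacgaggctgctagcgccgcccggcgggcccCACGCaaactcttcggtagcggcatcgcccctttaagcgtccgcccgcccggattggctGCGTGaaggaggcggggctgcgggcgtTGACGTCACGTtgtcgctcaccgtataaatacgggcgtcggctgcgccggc
Areg: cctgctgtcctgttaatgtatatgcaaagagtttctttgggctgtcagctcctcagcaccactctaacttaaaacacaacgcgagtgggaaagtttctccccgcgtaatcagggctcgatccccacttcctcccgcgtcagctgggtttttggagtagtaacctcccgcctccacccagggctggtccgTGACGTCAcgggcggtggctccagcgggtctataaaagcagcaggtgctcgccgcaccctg
Counting back from the start, the Tgfa window held 1 hypoxia core, at bases 222 to 218. The Errfi1 window held 3, at bases 137 to 133, 78 to 74 and 45 to 41, the last overlapping a cAMP response element at bases 51 to 44. The Areg window held a cAMP response element at bases 61 to 54 and no hypoxia core. Of the windows not printed, that of Btc held 2 hypoxia cores and that of the second Egf start held 1, while those of Egfr, Erbb2, the other Egf start and the other Errfi1 start held neither motif. Among all 32851 promoter windows of this length, 38.6% held a hypoxia core, 6.58% held at least 3 and 1.55% held a cAMP response element. Among the 12719 windows of genes tested here, 55.5% held a hypoxia core and 2.64% a cAMP response element, so a core in a family promoter is common among expressed genes. The share with at least 3 cores was not counted for these windows, and which Errfi1 start was in use was not tested. Btc, whose window held 2 cores, did not pass in any of the 3 comparisons, and Egfr and Erbb2, whose windows held none, passed higher with HIF2 by small margins. Sites beyond the 250 bases were not searched, and whether the motifs bear on the changes was not tested. The motifs were chosen with earlier results of these data known, and these letter matches are a description and not evidence of binding.

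Areg and Ereg encode amphiregulin and epiregulin and lie beside each other on chromosome 5. With Epgn and Btc they fall within 375.5 kb (GRCm38, GENCODE M21): Epgn at 91027464 to 91035215, Ereg at 91074622 to 91093646, Areg at 91139599 to 91148432 and Btc, on the opposite strand, at 91357261 to 91402994. Although they lie close, only Ereg of them passed with HIF2, Areg and Btc did not, and Epgn was too low to test. Ereg was at 10.5, 12.4 and 9.65 CPM in Ad-GFP, 19.5, 17.5 and 17.0 in Ad-hHIF2 and 12.5, 17.2 and 14.8 in Ad-hHIF1. All Ad-hHIF2 cultures were above all Ad-GFP cultures, and the Ad-hHIF1 cultures lay above Ad-GFP by a narrow margin and overlapped Ad-hHIF2. Ereg rose 1.66-fold with HIF2 (log2 change 0.73 ± 0.111 SE, interval 0.48 to 0.98, edgeR adjusted p = 0.00171), whereas the HIF1 change of 0.44 (interval 0.093 to 0.79) did not pass (edgeR adjusted p = 0.517).

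Areg, the most abundant ligand transcript per kilobase, was at 44.7, 47.4 and 45.8 CPM in Ad-GFP, 39.9, 41.7 and 38.2 in Ad-hHIF2 and 53.2, 60.9 and 59.2 in Ad-hHIF1. The groups did not overlap, with Ad-hHIF2 lowest and Ad-hHIF1 highest. The HIF2 change was -0.20 ± 0.0664 SE (log2, interval -0.35 to -0.047) and missed the threshold (edgeR adjusted p = 0.0531). With genes required to have at least 10 counts in every sample, its edgeR adjusted p was 0.0386. With scaling by total counts alone, which moved the median of all genes by 0.26, the HIF2 change of Areg became 0.057 and stayed below that median. The HIF1 change was 0.33 ± 0.0764 SE (interval 0.15 to 0.51, edgeR adjusted p = 0.486), which passed in DESeq2 (adjusted p = 0.0330).

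The remaining ligand genes did not pass in any comparison. Hbegf, which encodes heparin-binding EGF-like growth factor (chromosome 18), was at 46.1, 45.6 and 47.1 CPM in Ad-GFP, 45.5, 41.1 and 39.1 in Ad-hHIF2 and 45.1, 42.3 and 50.7 in Ad-hHIF1. The HIF2 interval of its log2 change ran from -0.30 to 0.028, and the Ad-hHIF2 cultures lay just under the Ad-GFP cultures. Btc, which encodes betacellulin, was between 11.2 and 15.2 CPM in all 9 cultures and overlapped between groups, with a HIF2 interval from -0.15 to 0.35.

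Egf itself was scarce, at 7 to 41 counts per library. It was at 0.410, 0.554 and 0.850 CPM in Ad-GFP, 0.526, 0.137 and 0.550 in Ad-hHIF2 and 0.553, 1.80 and 0.716 in Ad-hHIF1. The highest value came from Ad-hHIF1 replicate 3, the library with the high share of Gm10800 and Gm26870 counts, and without it the HIF1 log2 change went from 0.75 to 0.10. No change in Egf was detectable at this depth, and the intervals were wide: the HIF2 interval ran from -1.93 to 0.79 and the HIF1 interval from -0.61 to 2.12.

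Both receptor genes that passed did so by small margins. Egfr was at 26.9, 23.9 and 24.6 CPM in Ad-GFP, 30.2, 29.5 and 29.7 in Ad-hHIF2 and 27.5, 26.6 and 24.0 in Ad-hHIF1. Its Ad-hHIF2 values were tightly grouped above all others, and it rose 1.19-fold (log2 change 0.25 ± 0.0721 SE, interval 0.085 to 0.41, edgeR adjusted p = 0.0313). Per kilobase of effective transcript length, which differed between cultures for Egfr, the groups overlapped, at 3.54, 4.43 and 4.60 CPM per kb in Ad-GFP and 4.11, 4.49 and 4.62 in Ad-hHIF2. Erbb2, the receptor without a ligand, was at 20.2, 19.3 and 19.6 CPM in Ad-GFP, 23.4, 22.5 and 22.8 in Ad-hHIF2 and 19.2, 17.9 and 17.3 in Ad-hHIF1. It rose 1.17-fold with HIF2 (log2 change 0.22 ± 0.0686 SE, interval 0.065 to 0.38, edgeR adjusted p = 0.0403). Per kilobase the Erbb2 groups overlapped too, at 4.96, 3.99 and 4.07 CPM per kb in Ad-GFP and 4.81, 5.29 and 4.77 in Ad-hHIF2. With DESeq2 the adjusted p was 0.0592 for Egfr and 0.117 for Erbb2. Leaving out Ad-GFP replicate 3 or any Ad-hHIF2 culture ended the pass of both (edgeR adjusted p from 0.0770 to 0.129), and leaving out Ad-GFP replicate 1 ended that of Erbb2 (edgeR adjusted p = 0.0713).

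Erbb3, which binds neuregulins, was at 11.4, 9.04 and 10.8 CPM in Ad-GFP, 11.9, 11.9 and 11.5 in Ad-hHIF2 and 10.1, 12.0 and 11.5 in Ad-hHIF1. The Ad-hHIF2 cultures sat just above the Ad-GFP cultures, and the HIF2 interval ran from -0.067 to 0.44 (log2). It did not pass (edgeR adjusted p = 0.243). Counting all 10 genes, the Ad-hHIF2 cultures did not overlap the Ad-GFP cultures for 8, with 6 above and 2 below. Of all genes tested 45.8% did not overlap, 23.4% above and 22.4% below.

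The same question was asked of HIF1 with the same Ad-GFP cultures. None of the 10 family genes passed in edgeR (0 of 15233 genes passed, 0% of those tested), and 3 of the 10 (Areg, Ereg and Errfi1) had an unadjusted p below 0.05, against 8.59% of all genes. DESeq2 passed 139 genes in this comparison, of which 1 was a family gene, Areg. The groups did not overlap for 4 of the 10, with these 3 genes above Ad-GFP and Erbb2 below, where 17.4% of all genes did not overlap (8.38% above and 9.06% below). The median log2 change was 0.13 over the family and 0.0010 over all genes.

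In a direct contrast of the HIFs, fitted on all 9 cultures, 4 of the 10 family genes passed, with 3 higher and 1 lower in Ad-hHIF2. Of all 15556 genes tested, 25.8% passed, 13.7% higher and 12% lower. Tgfa was 2.78-fold higher in Ad-hHIF2 than in Ad-hHIF1 (log2 difference 1.48 ± 0.117 SE, edgeR adjusted p = 1.24e-05), close to its size over Ad-GFP. Errfi1 was 1.68-fold higher (0.74 ± 0.0741 SE, edgeR adjusted p = 6.11e-05) and Erbb2 was 1.26-fold higher (0.34 ± 0.0696 SE, edgeR adjusted p = 0.00548). Areg was lower in Ad-hHIF2 (-0.53 ± 0.0715 SE, interval -0.69 to -0.37, edgeR adjusted p = 0.000453), with no overlap between the groups, a difference that was -0.35 with scaling by total counts alone (edgeR adjusted p = 0.112). Ereg, which rose over Ad-GFP with HIF2, was not shown to differ between the HIFs (0.29, interval -0.0068 to 0.58, edgeR adjusted p = 0.143), nor was Egfr (0.19, interval 0.027 to 0.36, edgeR adjusted p = 0.0854).

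**Figure D2:**
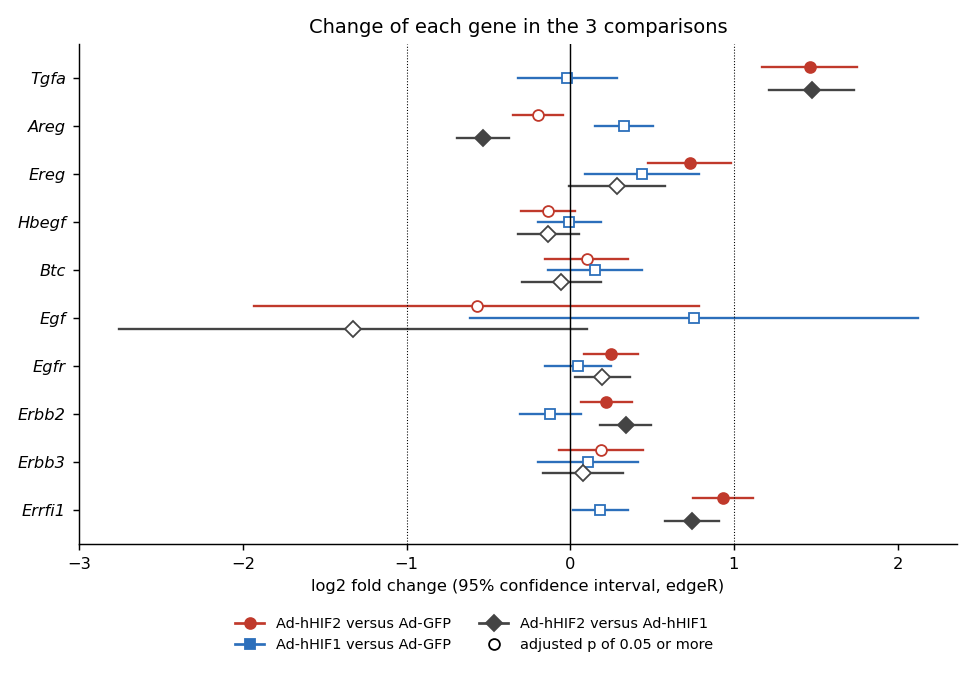
log2 fold change of each gene (horizontal axis, lines for 95% confidence intervals) in the 3 comparisons, which share samples. Filled symbols passed at an adjusted p below 0.05, and the dotted lines mark 2-fold. Tgfa lay past the 2-fold line in both comparisons with Ad-hHIF2 and near 0 with Ad-hHIF1, and Areg fell on opposite sides of 0 for the HIFs.

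Levels of different genes were compared per length, as CPM per kilobase of effective transcript length. In Ad-GFP the order was Errfi1 at 48.0 ± 1.11 CPM per kb (SD, n = 3), Areg at 42.7 ± 1.19, Hbegf at 20.7 ± 0.318 and Tgfa at 6.86 ± 1.26. Btc (4.55 ± 0.584), Erbb2 (4.34 ± 0.541) and Egfr (4.19 ± 0.570) followed and did not differ beyond their spread. Ereg (2.72 ± 0.360), Erbb3 (1.77 ± 0.211) and Egf (0.187 ± 0.0757) came last. In Ad-hHIF2, Tgfa moved to 19.2 ± 1.28 CPM per kb and stood beside Hbegf at 18.8 ± 1.47, within their spread. In the same cultures Errfi1 reached 90.3 ± 6.37 CPM per kb, Areg was at 37.1 ± 1.67, and Erbb2, Btc, Ereg and Egfr lay together between 4.41 and 4.95. In Ad-hHIF1, Errfi1 (54.4 ± 1.15 CPM per kb) and Areg (54.2 ± 4.27) did not differ beyond their spread, and Tgfa stayed at 6.81 ± 0.312.

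The make-up of the ligand pool was described by each ligand's percent of the summed TPM (RSEM's length-scaled abundance) of the 6 ligands in each sample. Tgfa made up 8.84% ± 1.61 (SD, n = 3) of the ligand TPM in Ad-GFP, 22.7% ± 0.973 in Ad-hHIF2 and 7.49% ± 0.143 in Ad-hHIF1. Per culture its share was 8.92%, 7.19% and 10.4% in Ad-GFP and 23.6%, 21.7% and 23.0% in Ad-hHIF2, so that the groups did not overlap. Areg held 54.9% ± 1.06 of the ligand TPM in Ad-GFP, 43.8% ± 1.65 in Ad-hHIF2 and 59.5% ± 1.33 in Ad-hHIF1, the largest share in every culture. Hbegf held 26.7% ± 0.580, 22.2% ± 0.875 and 22.8% ± 2.31 in the same order. Ereg went from 3.51% ± 0.447 in Ad-GFP to 5.32% ± 0.217 in Ad-hHIF2, Btc was between 5.53% and 5.85% on average in each group, and Egf was at most 1.02% in any culture. Shares are bound to sum to 100%, so a rise of Tgfa lowers the others. Summed over the 6 ligands, the level was 77.7 ± 1.57 CPM per kb in Ad-GFP, 84.6 ± 3.73 in Ad-hHIF2 and 91.0 ± 5.70 in Ad-hHIF1. Without Tgfa it was 70.9 ± 1.90, 65.3 ± 2.86 and 84.1 ± 5.39.

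**Figure D3:**
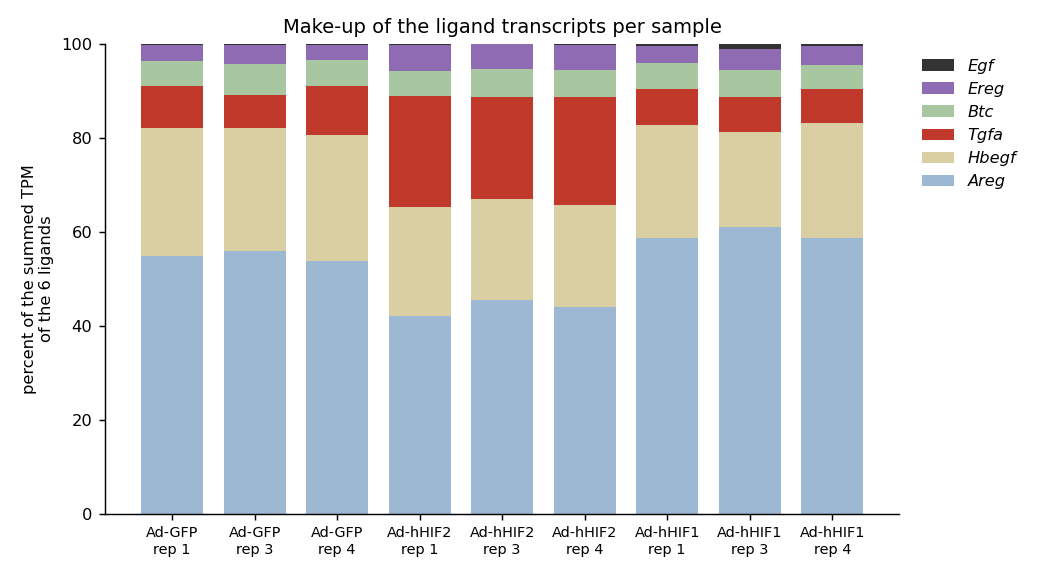
Share of each ligand gene in the summed TPM of the 6 ligands (vertical axis, percent) in each culture (bars). The Tgfa segment spanned 21.7% to 23.6% in the Ad-hHIF2 cultures and 7.19% to 10.4% in the other 6, and Areg was the largest segment in all 9.

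RSEM also gives each gene's length averaged over its transcripts by abundance, which moves when other transcripts carry the reads. It was compared for the 6 family genes with several transcripts, against Ad-GFP, by two-sided exact permutation tests of 3 against 3 cultures, whose smallest p is 0.1. Tgfa stayed close to the length of its 4527-base transcript, at 4500 ± 41.1 bases in Ad-GFP and 4413.5 ± 70.2 in Ad-hHIF2 (exact p = 0.2, adjusted p = 0.8 over 12 tests). Errfi1 was at 2927 ± 63.9 bases in Ad-GFP and 2963 ± 18.8 in Ad-hHIF2 (exact p = 0.5, adjusted p = 0.873). Egfr ran from 5178 to 7741 bases over the 9 cultures, between its annotated transcripts of 2943 and 10208 bases, with overlap between groups. Egf was 1987 ± 109 bases long in Ad-hHIF1 and 3388 ± 284 in Ad-GFP (exact p = 0.1, adjusted p = 0.6), on at most 41 counts per library. Ereg had counts more than 0.005 of a read from a whole number in 8 of 9 cultures, by at most 0.35 of a read, and Tgfa in 3 of 9, by at most 0.03, and how many reads they share with other genes was not tested.

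Other genes of the pathway were read from lists grouped by function, in the comparison of Ad-hHIF2 with Ad-GFP. The lists were chosen with earlier results of these data known, so their counts are a description. Of the 6 family genes outside the set described above, Epgn, Nrg3 and the receptor gene Erbb4 were too low to test, at no more than 0.438 CPM in any culture. The neuregulin genes Nrg1 (-0.12), Nrg2 (-0.25) and Nrg4 (0.42) did not pass, and Nrg1, at 8.38 ± 0.288 CPM in Ad-GFP and 7.66 ± 1.14 in Ad-hHIF2, was the most abundant of them.

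Of 10 genes for the release of ligands from the membrane, 4 rose, 2 fell and 4 did not pass, with a median log2 change of 0.13, where 15.9% of all genes passed and rose, 13.6% passed and fell and the median was -0.012. Adam10, a protease known to release betacellulin and EGF, rose from 32.0 ± 2.36 to 85.3 ± 7.80 CPM with HIF2 (log2 change 1.42 ± 0.0932 SE, edgeR adjusted p = 1.76e-05) and was at 37.8 ± 1.11 in Ad-hHIF1. Adam12 fell from 3.63 ± 0.346 to 1.21 ± 0.247 CPM (-1.59 ± 0.245 SE, edgeR adjusted p = 0.00182). Of the others, singled out after their values were seen, Adam9 rose by 0.63 and Adam17, the main protease for TGF-alpha, amphiregulin and epiregulin, rose by 0.30 at the threshold (edgeR adjusted p = 0.0499). Adam17 lost its pass in 10 of 15 alternatives.

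Of 23 genes for adaptors and the RAS-ERK, PI3K and phospholipase C arms, 6 rose, 2 fell and 15 did not pass, with a median log2 change of 0.090 and no gene called. The 8 of 23 that passed are close to the 29.5% of all genes that passed. Named after their values were seen, the adaptor gene Grb2 rose by 0.65 on the log2 scale, a pass lost in 4 of 15 alternatives, and Hras (-0.51, edgeR adjusted p = 0.0439) and Pik3cb (-0.37, edgeR adjusted p = 0.0121) fell. No gene of this list passed lower with total counts only or on TPM. Of 17 genes for receptor turnover and feedback, 7 rose, 0 fell and 10 did not pass, with a median of 0.26, against 15.9% higher and 13.6% lower over all genes. Lrig3, a member of the leucine-rich repeat family that acts on receptor tyrosine kinases, rose from 4.92 ± 1.32 to 11.6 ± 0.614 CPM (1.22 ± 0.178 SE, edgeR adjusted p = 0.00138). Also named after their values were seen, the ERK feedback inhibitor genes Spry4 (0.98), Dusp6 (0.80) and Spry2 (0.62) rose, while Lrig1 (0.0064), Cbl (0.089) and Dusp5 (-0.14) did not pass.

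The 12 genes that respond to ERK activity moved in both directions: 3 rose, 7 fell and 2 did not pass, with a median log2 change of -0.37, where 15.9% of all genes passed higher and 13.6% lower. Ier3, an early response gene, rose from 79.5 ± 8.19 to 323.4 ± 16.6 CPM (2.03 ± 0.0970 SE, edgeR adjusted p = 2.92e-06), and Egr2, a zinc finger factor gene at low level, rose from 0.431 ± 0.381 to 2.96 ± 0.882 CPM (2.64 ± 0.628 SE, edgeR adjusted p = 0.0141). Egr1, a related early response factor gene, fell from 22.3 ± 3.54 to 4.43 ± 1.56 CPM (-2.35 ± 0.245 SE, edgeR adjusted p = 0.00023). Myc, which encodes a growth-promoting transcription factor, fell from 146.2 ± 2.76 to 65.3 ± 7.46 CPM (-1.16 ± 0.0931 SE, edgeR adjusted p = 5.32e-05). Plaur, the urokinase receptor gene, fell from 61.4 ± 7.71 to 30.4 ± 2.39 CPM (-1.01 ± 0.104 SE, edgeR adjusted p = 0.000222). Singled out after their values were seen, Ccnd1 (-0.86) and Fos (-0.41) fell and Junb (0.66) rose. In the comparison of Ad-hHIF1 with Ad-GFP, 0 genes of these lists passed in edgeR, where 0 of all 15233 genes tested passed.

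**Figure D4:**
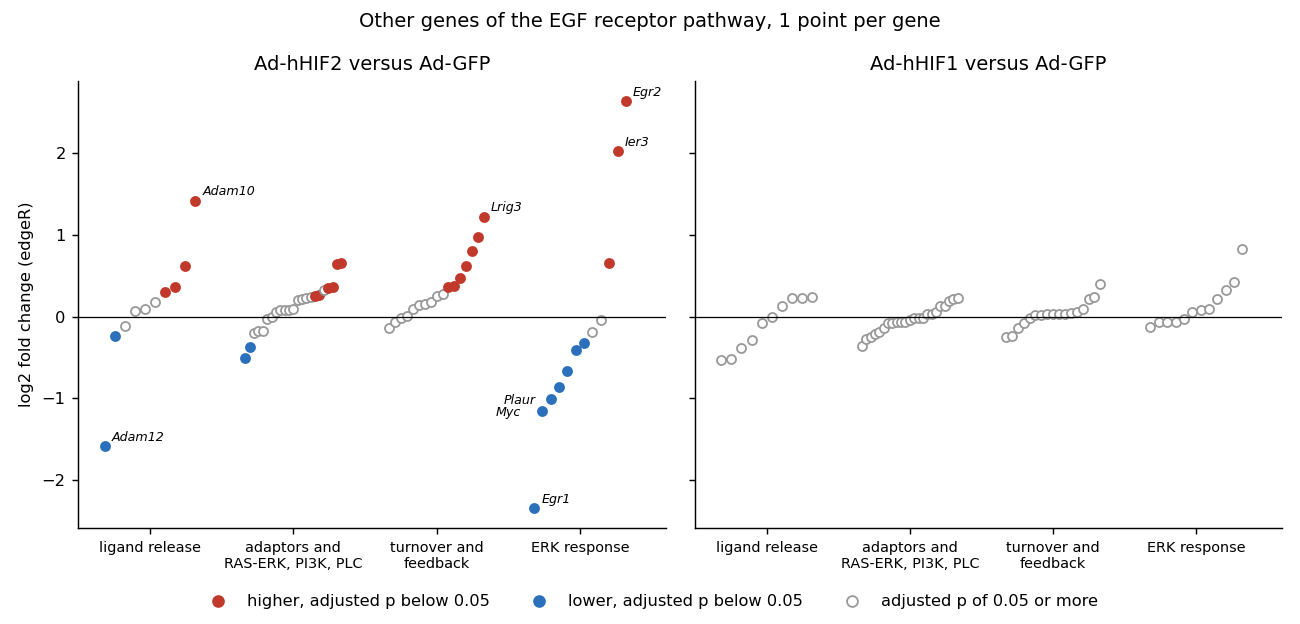
log2 fold change (vertical axis) of the other pathway genes, 1 point per gene, ordered by value within each list, for Ad-hHIF2 (left) and Ad-hHIF1 (right) against the same Ad-GFP cultures. Filled points passed (red higher, blue lower) and called genes are named. All 7 passing genes for turnover and feedback were higher, and the ERK response genes spread from -2.35 to 2.64. No point was filled for Ad-hHIF1, where 0 of all 15233 genes tested passed.

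The genes most like Tgfa were sought among 7239 genes by the root mean square difference, over the 9 cultures, between log2 CPM values taken as deviations from the Ad-GFP mean. They were Sh3kbp1 (0.0975), Aplp2 (0.101) and Cdh17 (0.102). Sh3kbp1 averaged 26.5 CPM in Ad-GFP, 72.2 in Ad-hHIF2 and 26.3 in Ad-hHIF1, Aplp2 averaged 44.7, 113.2 and 44.6 CPM, and Cdh17 averaged 117.9, 317.6 and 122.1 CPM. Like Tgfa, they were higher in Ad-hHIF2 and near the Ad-GFP level in Ad-hHIF1, which is what the search asked for.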

How the data were processed

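Total RNA of 9 duodenal organoid cultures was sequenced, 3 per group, and samples were grouped by the virus named in the labels. Per the methods, the authors filtered reads on quality, estimated abundances with RSEM and called genes with EBSeq. The RSEM version, aligner, build and strandedness are not given in the sources used here. The expected counts were deposited without normalization and were rounded here to whole numbers. The TPM deposited by the authors were used for ligand shares and in alternatives, and genes under 400 bases took 90.3% to 95.0% of the TPM of a library, so levels in TPM are given as shares within a sample, and fits on TPM between groups serve as alternatives only. The FPKM deposited by the authors, also from RSEM, were not used.

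Low-count genes were removed with filterByExpr, counts were scaled by TMM and edgeR's quasi-likelihood test was run (R 4.3.3 with edgeR 4.0.16 and limma 3.58.1), with Benjamini-Hochberg adjustment over all genes tested. The contrast of a HIF with Ad-GFP used those 6 samples, and the contrast of the HIFs used all 9. The comparisons share samples. The alternatives were DESeq2 1.42.0, scaling by median-ratio size factors or total counts alone, a minimum of 10 counts in every sample, no count filter, limma on log2(TPM + 1) and log2(TPM + 0.1), the replicate block, other sample sets and each sample left out. CPM per kilobase was added after the data were seen. The tests were tested on data simulated with the same spread setting for every gene, so error rates in the real data may differ. The study names 3 biological replicates per group, and p-values measure the spread between these samples. Intervals cover 95%.

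The family genes, the lists and the motifs were chosen with earlier results of these data known. By rule the text names every family gene, called genes of the other pathway lists, family genes outside the set and the 3 genes most like each called member (mean CPM of at least 10). Positions are from GENCODE M21 and promoters from RefSeq, both GRCm38, which may not be the authors' build.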

Additional observations from a re-analysis of the deposited data

Results flagged for a closer look

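The effects of HIF2 and HIF1 over the same Ad-GFP cultures differed for 4 of the 10 EGF family genes in the direct test of Ad-hHIF2 against Ad-hHIF1 (edgeR's quasi-likelihood test, all 9 cultures, Benjamini-Hochberg adjusted). The log2 difference was 1.48 for Tgfa (adjusted p = 1.24e-05), 0.74 for Errfi1 (adjusted p = 6.11e-05), 0.34 for Erbb2 (adjusted p = 0.00548) and -0.53 for Areg (adjusted p = 0.000453). All 3 Ad-hHIF2 cultures lay above all 3 Ad-hHIF1 cultures for Tgfa, Errfi1 and Erbb2, and below them for Areg. Across all genes tested 25.8% passed. Without Ad-hHIF1 replicate 3, the library with the high share of Gm10800 and Gm26870 counts, the differences were 1.49, 0.73, 0.32 and -0.51 in the same order.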

How the results depend on the processing

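The rise of Tgfa and Errfi1 with HIF2 passed in all 15 alternatives, with log2 changes from 1.21 to 1.83 for Tgfa and from 0.91 to 1.35 for Errfi1. Ereg passed in 13 of 15, missing in limma on log2(TPM + 1) (adjusted p = 0.114) and log2(TPM + 0.1) (adjusted p = 0.0684). Egfr passed in 8 of 15 and Erbb2 in 6 of 15. The number of family genes higher with HIF2 was 3 with DESeq2, 2 with either limma fit on TPM, and 3 to 5 when a sample was left out, and the number lower was 1 with at least 10 counts in every sample. Between the HIFs, the number higher was 1 with either limma fit on TPM, and the number lower was 0 with total counts only and with either limma fit on TPM. The ligands summed to 21.8 TPM in Ad-hHIF2 replicate 1, and to 11.5 and 11.2 TPM in Ad-hHIF2 replicates 3 and 4. Their CPM per kilobase summed to 87.9, 85.3 and 80.5 in the same order. The part of Ad-hHIF2 replicate 1 in the TPM fits was not tested.

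Scaling by total counts alone moved the median of all genes by 0.26 for HIF2 against Ad-GFP and by 0.18 between the HIFs, and limma on log2(TPM + 0.1) moved it by 0.31, 0.13 (HIF1) and 0.18, while log2(TPM + 1) moved it by 0.14 for HIF2. Some small changes turned direction. With total counts only, log2(TPM + 1) and log2(TPM + 0.1), in this order, the HIF2 change was 0.057, 0.22 and 0.25 for Areg, 0.13, 0.24 and 0.30 for Hbegf, 0.015, 0.14 and 0.18 for Rhbdf1 and 0.15, 0.14 and 0.28 for Nrg1. The HIF1 change was 0.063, 0.084 and 0.16 for Tgfa and 0.078, 0.13 and 0.17 for Hbegf, and the difference between the HIFs was 0.053, 0.11 and 0.13 for Hbegf and 0.12, 0.11 and 0.21 for Btc. On the 2 TPM scales alone, the HIF1 change of Erbb2 was 0.015 and 0.035 and the HIF2 change of Fos was 0.11 and 0.14. None of these passed. When samples were left out, the HIF1 change ran from -0.15 to 0.13 for Tgfa and from -0.087 to 0.054 for Hbegf, the difference between the HIFs from -0.011 to 0.11 for Erbb3, and the HIF2 change of Nrg2 from -0.72 to 0.043.

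For HIF2, the genes passing numbered 1010 and 1109 in the limma fits on log2(TPM + 1) and log2(TPM + 0.1), with 237 called in the former, against 4416 passing and 1009 called in the edgeR test. Between the HIFs 367 and 460 passed and 138 and 408 were called, and leaving out samples gave 2594 to 4335 passing and 585 to 1160 called, against 4008 and 951. For HIF1, where edgeR passed 0 genes, 384 passed and 138 were called with no count filter, 139 and 1 with DESeq2 (1 family gene, Areg) and 7 and 2 with all 9 samples in 1 fit. Among the HIF2 lists, ligand release gave 2 higher on both TPM scales and 2 to 3 with samples left out, and 1 lower with total counts only, no count filter, DESeq2 and each sample left out and 0 on TPM. Adaptors gave 10 higher and 0 lower with total counts only, 1 higher and 0 lower on TPM, and 2 to 8 higher and 0 to 2 lower with samples left out. Turnover and feedback gave 3 higher on TPM and 4 to 8 with samples left out, and ERK response gave 4 lower with total counts only and 1 on TPM. The share of Tgfa among the ligands, taken from CPM without correction for length, was 20.5% in Ad-GFP, 42.0% in Ad-hHIF2 and 18.1% in Ad-hHIF1. The cause of these differences was not tested.

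The replicate numbers 1, 3 and 4 recur in each group, but nothing says that they mark a shared mouse or day. Same-numbered samples had deviations correlated at 0.0703 to 0.134 for HIF2 and Ad-GFP, -0.0909 to 0.0969 for HIF1 and Ad-GFP and -0.194 to -0.0670 between the HIFs. With the number as a replicate block, 4631 genes passed for HIF2, 0 for HIF1 and 3638 between the HIFs, with 5, 0 and 3 family genes higher and 0, 0 and 1 lower, so the block changed no count of family genes. Depth limited Egf most, at 7 to 41 counts per library.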
